A study of Rattus norvegicus with 2 samples.

Results

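Primary cultures of carotid body cells from Sprague Dawley rats, 16 carotid bodies per culture, were kept for 7 days in chronic hypoxia (1% oxygen) or in normoxia (21% oxygen), with nerve growth factor and serum in the medium of both. The carotid body is the arterial oxygen sensor at the fork of the carotid artery, and each culture pools the organs of several rats and all their dissociated cell types. Their RNA was copied into cDNA labelled with radioactive dCTP and hybridised to nylon membranes carrying spots for 1185 genes, with 3 membranes for chronic hypoxia and 3 for normoxia. The labels do not say whether each membrane had its own culture, so every p-value here measures only how membranes differ, and that spread may be technical. In such mixed cultures, fewer cells of a type and less RNA per cell cannot be told apart.

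The genes described are the alcohol and aldehyde dehydrogenases and the aldehyde reductase of the array. They were chosen by gene name: every spot whose name contains aldehyde dehydrogenase, alcohol dehydrogenase, aldehyde reductase or aldose reductase, leaving out glyceraldehyde. That rule took 5 of the 1185 genes and used no measured value. They are the mitochondrial aldehyde dehydrogenase Aldh2 (deposited name "aldehyde dehydrogenase 2, mitochondrial, liver"), the NADP-linked aldehyde reductase Akr1a1 ("NADP+ alcohol dehydrogenase"), the class 1 alcohol dehydrogenase Adh1c ("ADH1"), the retinaldehyde-specific dehydrogenase Aldh1a2 and the microsomal dehydrogenase Aldh3a2. The deposited names are those of the array's design, and the symbols were assigned by hand. All 5 are listed for the rat by RefSeq (assembly GRCr8), with ADH1 as a former symbol of Adh1c.

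Alcohol dehydrogenases oxidise alcohols to aldehydes, and aldehyde dehydrogenases oxidise aldehydes on to carboxylic acids, passing electrons to NAD+ or NADP+. Aldehyde reductases of the aldo-keto reductase family run the other way and reduce aldehydes to alcohols with NADPH. In cells that make dopamine, as glomus cells, the oxygen-sensing cells of this organ, do, monoamine oxidase turns dopamine into a reactive aldehyde that enzymes of both kinds remove. Of the 8 glomus cell markers on the array, Slc6a3, Dbh, Cpe and Slc18a3 exceeded background on 3 membranes or more. The other 4, among them the dopamine-making decarboxylase Ddc, were above background on no membrane. Of markers of other cells, 2 of 4 endothelial, 1 of 2 matrix, 1 of 2 smooth muscle, 0 of 3 glial and 0 of 5 immune spots reached 3 membranes. Over the whole array 152 of 1185 genes (12.8%) did. Dbh and the endothelial marker Nos3 have position codes between C09 and C11, where 40 of 42 spots (95.2%) did. The marker counts were not tested and do not give the share of any cell type.

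Median intensity was 1704, 3409 and 16411 on chronic hypoxia membranes 1 to 3, against 2427, 3409 and 2681 on normoxia membranes 1 to 3. Chronic hypoxia membrane 3 stood apart with a lowest intensity of 14591, against 309 to 412 on the other 5 membranes, so its deposited intensities are not comparable with theirs before correction. The threshold for a signal above background was set for each membrane at its median plus 3 times the spread of its values under the median. Chronic hypoxia membranes 1 and 3 had a rank correlation of 0.772 across genes, and the other 14 pairs of membranes lay between 0.267 and 0.580.

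The family split into 3 genes with strong signal on every membrane and 2 at or near background. Aldh2, Akr1a1 and Adh1c were above background on all 6 membranes, as were 49 of all 1185 genes (4.14%), and the same 3 of the 5 reached at least 3 membranes, against 152 of 1185 (12.8%). Aldh1a2 was above background on 1 membrane of each condition and Aldh3a2 on none. All 5 genes passed the filter on dim genes, which asked for an intensity over the 25th percentile of its membrane in 3 or more of the 6 and kept 1038 of the 1185. A gene at background here had no signal that this array could tell from its membrane, and different spots hold different cDNA, so the intensities do not rank the enzymes by RNA level.

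**Figure D1:**
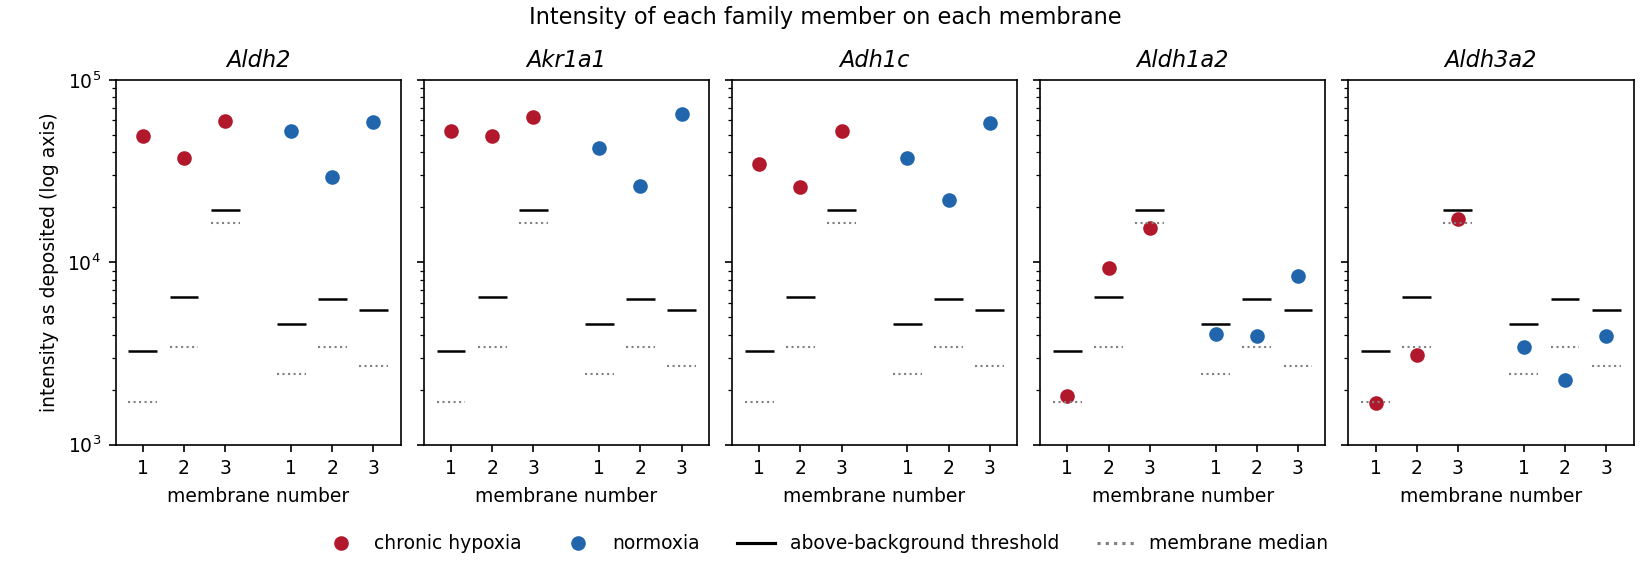
Intensity as deposited (log axis) of the 5 genes on chronic hypoxia membranes 1 to 3 (red) and normoxia membranes 1 to 3 (blue), with the above-background threshold (black bar) and the median (dotted grey bar) of each membrane. Aldh2, Akr1a1 and Adh1c lie above the black bar on all 6 membranes, Aldh1a2 on 2 and Aldh3a2 on none.

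Aldh2, the mitochondrial enzyme that clears acetaldehyde and aldehydes made from amine transmitters and lipids, was among the brightest spots of the array in both conditions. Its intensity was 48937, 37181 and 59208 on chronic hypoxia membranes 1 to 3, against 52585, 29339 and 58466 on normoxia membranes 1 to 3. Counted from the brightest gene, that placed it at rank 12, 14 and 7 of 1185 in chronic hypoxia and at rank 16, 13 and 23 in normoxia. The deposited intensities of the conditions overlapped, with the lowest value on normoxia membrane 2 and the highest on chronic hypoxia membrane 3. After background correction and quantile normalization, Aldh2 had a log2 intensity of 15.49 ± 0.17 (SD, n = 3) in chronic hypoxia and 15.23 ± 0.21 (SD, n = 3) in normoxia. The log2 difference was 0.26 with an SE of 0.52 (limma adjusted p = 0.921), and the exact two-sided permutation p was 0.2.

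Akr1a1, which reduces aldehydes, among them 3-deoxyglucosone from sugar breakdown, to alcohols, had the highest mean difference of the 5 genes. Its intensity was 52207, 49257 and 62132 on chronic hypoxia membranes 1 to 3, against 42378, 26245 and 64773 on normoxia membranes 1 to 3. Normoxia membrane 3 held the highest deposited value and normoxia membranes 1 and 2 the lowest, so the conditions overlapped. The value on normoxia membrane 3 lay within 5% of the ceiling of 65535, where intensities stop being proportional to label. Normalized, Akr1a1 had 15.61 ± 0.13 (SD, n = 3) in chronic hypoxia and 15.27 ± 0.26 (SD, n = 3) in normoxia on the log2 scale. The lowest chronic hypoxia value and the highest normoxia value were the same, 15.50, because the gene was the 11th brightest on both membranes. The log2 difference was 0.35 with an SE of 0.53 (adjusted p = 0.863 in limma), and the exact permutation p was 0.2.

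Adh1c, the class 1 enzyme best known for oxidising ethanol and retinol in liver, was the third gene with strong signal. Its intensity was 34486, 25690 and 52403 on chronic hypoxia membranes 1 to 3, against 37401, 21975 and 57883 on normoxia membranes 1 to 3. Both the lowest and the highest value came from normoxia. Its ranks from the brightest were 22, 23 and 15 in chronic hypoxia and 27, 22 and 26 in normoxia. Normalized, Adh1c had 15.11 ± 0.17 (SD, n = 3) in chronic hypoxia and 14.88 ± 0.15 (SD, n = 3) in normoxia, giving a log2 difference of 0.23 (SE 0.52). Its adjusted p in limma was 0.923 and its exact permutation p 0.3. Without normalization between membranes the difference turned to -0.15, and that of Aldh2 to -0.034, a setting that shifted the median of all tested genes to -0.17, against 0.03 after quantile normalization.

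Aldh1a2, which makes retinoic acid from retinaldehyde, had the widest spread of the 5 genes among the chronic hypoxia membranes, an SD of 2.62 on the log2 scale. Its normalized log2 intensity was 10.72, 14.29 and 9.18 on chronic hypoxia membranes 1 to 3, against 11.70, 10.87 and 12.00 on normoxia membranes 1 to 3. The deposited intensity passed the background threshold on chronic hypoxia membrane 2, at 9306, and on normoxia membrane 3, at 8373. The chronic hypoxia membranes thus held both the highest and the lowest of the 6 normalized values. The log2 difference was -0.12 (SE 1.09), with an adjusted p of 0.991 in limma and an exact permutation p of 0.9. Leaving out chronic hypoxia membrane 2 gave -1.57 and leaving out membrane 3 of that condition gave 0.98, so the sign rested on single membranes.

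Aldh3a2, which oxidises long-chain fatty aldehydes at the endoplasmic reticulum, stayed between 0.665 and 1.46 times the membrane median on all 6 membranes. Its intensity was 1701, 3097 and 17275 on chronic hypoxia membranes 1 to 3, against 3410, 2266 and 3921 on normoxia membranes 1 to 3. The 17275 is at the general level of chronic hypoxia membrane 3 and below its background threshold. No fold is given for Aldh3a2, since it was below background in both conditions and every log2 difference fitted to it compares values at background. Its fitted difference had a limma adjusted p of 0.991 and an exact permutation p of 1.

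None of the 5 genes passed the test of chronic hypoxia against normoxia. By limma, 0 of 5 had an adjusted p under 0.05, against 0 of 1038 tested genes (0%), and 0 of 5 had an unadjusted p under 0.05, against 75 of 1038 (7.23%). The normalized values of the conditions lay fully apart and higher in chronic hypoxia for 0 of the 5, against 67 of 1038 genes (6.45%). Differences were above 0 for 4 of the 5 and for 538 of the 1038 (51.8%), with a median log2 difference of 0.23 over the 5 and 0.03 over all tested genes. The 4 include Aldh3a2, which was at background on all membranes, so its sign is not a measured direction. Without normalization between membranes, 1 of the 5, Akr1a1, was above 0, against 432 of the 1038 (41.6%), and the median over the 5 was -0.088, against -0.17 over all tested genes. For the 152 genes with signal on 3 or more membranes the median was 0.07. The smallest p that an exact permutation test of 3 against 3 membranes can give is 0.10, so that test could not pass 0.05 for any gene.

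The size of a change that these membranes could have missed is given by the 95% intervals of the fit. For Aldh2 the fold of chronic hypoxia over normoxia was 1.20, with an interval of 0.536 to 2.68. For Akr1a1 it was 1.27 (0.568 to 2.85) and for Adh1c 1.18 (0.528 to 2.62). All 3 intervals thus reach well below and well above a fold of 1. These intervals borrow the spread of all tested genes. From their own 6 values alone the standard errors of the log2 differences were 0.16 for Aldh2, 0.17 for Akr1a1 and 0.13 for Adh1c, below the 0.52 to 0.53 of the shared fit. Quantile normalization gives each rank a fixed value and the ceiling limits the brightest spots, and their part in these small errors was not tested.

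**Figure D2:**
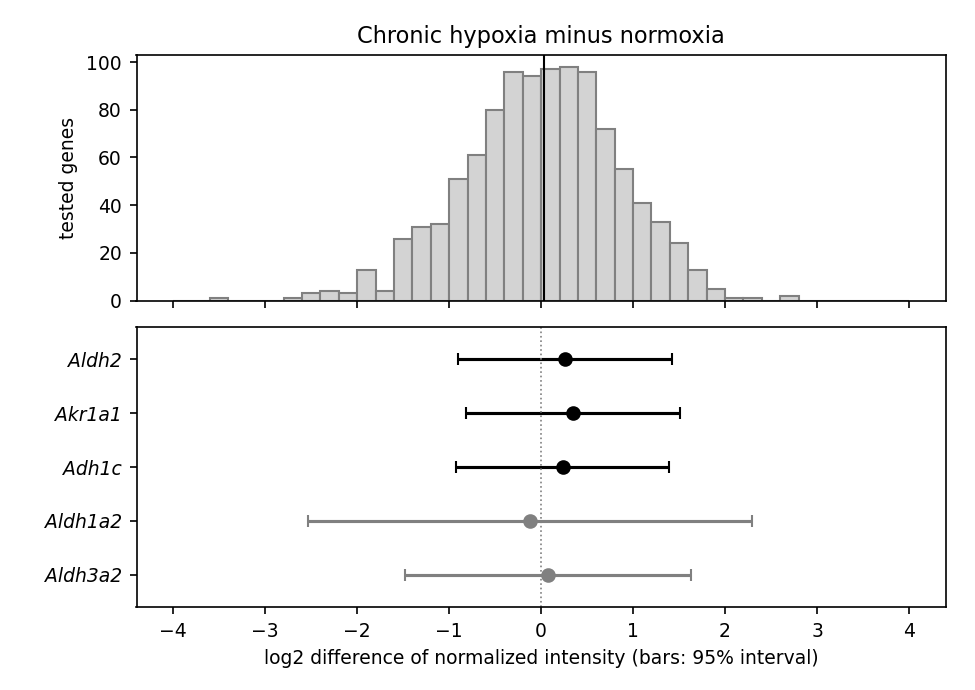
Log2 difference of normalized intensity, chronic hypoxia minus normoxia: above, the number of tested genes by difference (all 1038, black line at their median of 0.03), and below, the 5 genes with their 95% intervals, black for genes above background on all 6 membranes. Every interval of the 5 genes includes 0.

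Ratios between the 3 bright genes on the same membrane do not depend on how membranes are scaled to each other. They were examined after the values had been seen, over 3 pairs of genes. The log2 ratio of Akr1a1 over Adh1c, after background correction, was 0.61, 1.00 and 0.33 on chronic hypoxia membranes 1 to 3, against 0.19, 0.28 and 0.16 on normoxia membranes 1 to 3. All 3 chronic hypoxia ratios lay above all 3 normoxia ratios, which was so, in one direction or the other, for 134 of the 1176 pairs (11.4%) among the 49 genes above background on every membrane. The ratio on normoxia membrane 3 may be too low, because Akr1a1 was near the ceiling there, and without that membrane the difference of the means was 0.41. With all 6 membranes the difference of the mean log2 ratios was 0.44, with an exact permutation p of 0.1, the smallest possible, and 0.3 after adjustment over the 3 pairs. On the intensities as deposited the difference was 0.39, and the conditions then overlapped on this ratio by chronic hypoxia membrane 3 (0.25) against normoxia membrane 2 (0.26). After background correction and without chronic hypoxia membrane 2, the one with the highest ratio, the difference was 0.26.

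The ratio of Akr1a1 over Aldh2 was 0.20 ± 0.19 (SD, n = 3) in chronic hypoxia and -0.11 ± 0.24 (SD, n = 3) in normoxia on the log2 scale. The conditions overlapped on normoxia membrane 3, and the exact permutation p was 0.3 (0.45 after adjustment over the 3 pairs). Aldh2 over Adh1c was 0.44 ± 0.18 (SD, n = 3) in chronic hypoxia and 0.32 ± 0.27 (SD, n = 3) in normoxia (exact permutation p = 0.5, also 0.5 adjusted). Normoxia membrane 3 had the lowest ratio of Aldh2 over Adh1c, 0.01, and without it the difference turned to -0.037. No ratio of the 3 was shown to change.

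**Figure D3:**
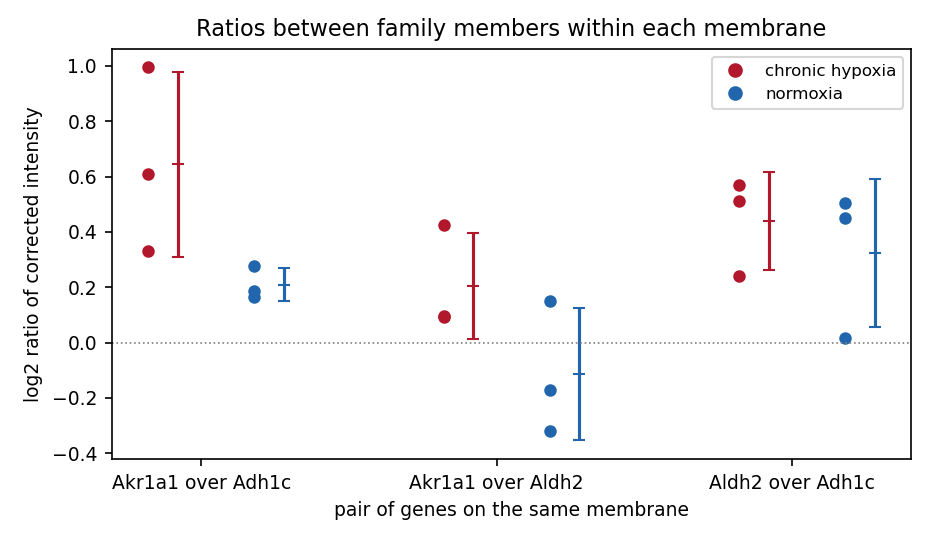
Log2 ratio of background-corrected intensities for 3 pairs of genes, each point 1 membrane, with the mean and SD beside the points, for chronic hypoxia (red) and normoxia (blue). Akr1a1 over Adh1c is the pair whose conditions do not overlap, with chronic hypoxia from 0.33 to 1.00 and normoxia from 0.16 to 0.28. Akr1a1 was near the ceiling on normoxia membrane 3, where its ratios may be too low.

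The files give each spot a position code, but how codes map to places on the membrane is not given in the sources used here, so spots with adjoining codes need not be physical neighbours. Aldh2 and Akr1a1 are both among the 14 spots coded C10a to C10n, at C10i and C10m. Of these 14 spots 13 exceeded background on 3 membranes or more, and of the 42 spots coded C09, C10 or C11 40 were (95.2%), against 12.8% of all genes. Adh1c, at C03c, belongs to 14 spots of which 7 were. The codes C09 to C11 hold enzymes, carbonic anhydrases, nitric oxide synthase and ribosomal proteins side by side. Whether signal of bright spots reached other spots was not tested.

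The codes before and after that of Akr1a1 belong to bright spots, acetylcholinesterase (Ache, C10l) and endothelial nitric oxide synthase (Nos3, C10n). Ache had intensities of 65535, 64979 and 63900 on chronic hypoxia membranes 1 to 3, against 64923, 46038 and 65535 on normoxia membranes 1 to 3. Nos3 had 65499, 64139 and 64448 in chronic hypoxia, against 61083, 34690 and 65535 in normoxia. Ache, Nos3 and all 3 bright genes of the family, Adh1c at C03c included, had their lowest intensity on normoxia membrane 2, whose highest value of any gene, 58956, was the lowest of the 6 membranes. The codes on either side of Aldh2 belong to 4-aminobutyrate transaminase (Abat, C10h), with intensities of 22109 to 50991 over the 6 membranes, and to alkaline phosphatase (C10j), with 6812 to 43915. Over the other 12 spots coded C10 the log2 differences between chronic hypoxia and normoxia ran from -0.80 to 1.08 with a median of 0.09, and 8 of the 12 were above 0. The 0.26 of Aldh2 and the 0.35 of Akr1a1 lay within that range.

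**Figure D4:**
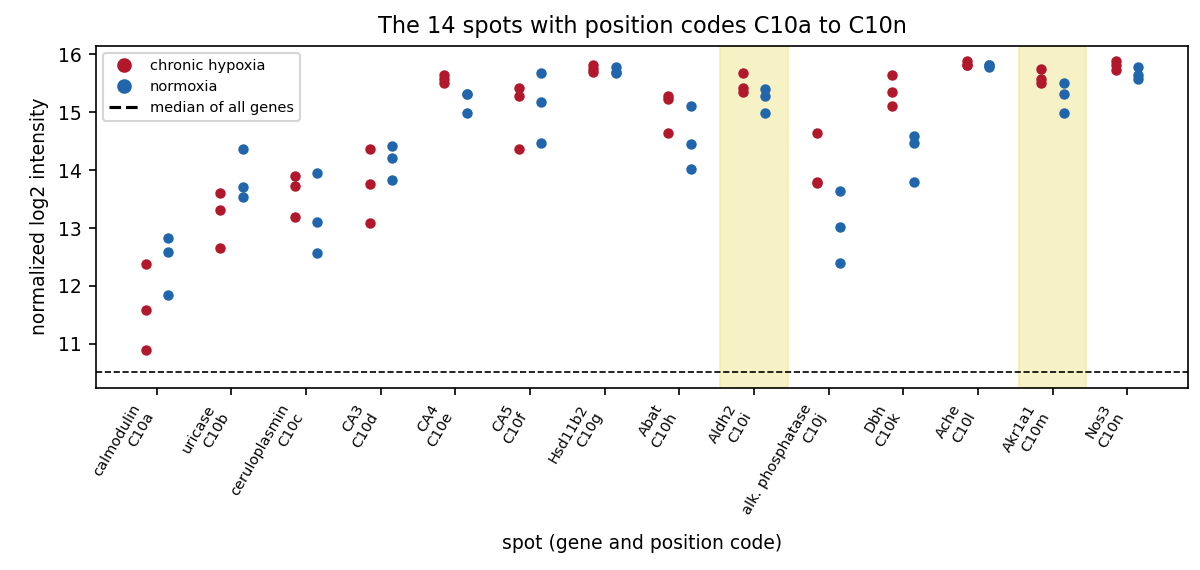
Normalized log2 intensity of the 14 spots coded C10a to C10n, each point 1 membrane, for chronic hypoxia (red) and normoxia (blue), with Aldh2 and Akr1a1 shaded and the median of all genes dashed. Every one of these spots lies above the dashed line on all 6 membranes.

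Over the 6 membranes the normalized log2 intensities of Aldh2 and Adh1c moved together with a Pearson r of 0.854, those of Akr1a1 and Adh1c with 0.748 and those of Aldh2 and Akr1a1 with 0.372. On the log2 intensities as deposited, which are not scaled between membranes, r was 0.947 for Aldh2 and Adh1c. It was 0.851 for Aldh2 and Akr1a1 and 0.828 for Akr1a1 and Adh1c, so the order of the pairs depends on the scale. These are descriptions over 6 membranes. All genes of a membrane share its label, its scan and its normalization. The labels name no scan format, but by the grid spacing given below the membranes were taken to be of more than 1. The part of the format in these correlations was not tested. Among the other 151 genes above background on at least 3 membranes, those most like Aldh2 were polyubiquitin (r = 0.962), dopamine beta-hydroxylase (Dbh, 0.897) and the ribosomal protein gene Rps12 (0.878). Most like Adh1c were the acyl-CoA dehydrogenase gene Acadl (0.893), Aldh2 and the annexin gene Anxa2 (0.793). Most like Akr1a1 were Rpl13 (0.885), Rpl11 (0.850) and a testis form of cytochrome c (0.796). Of these 9 places, 6 were taken by spots coded C09, C10 or C11, codes carried by 40 of the 152 genes with signal on 3 or more membranes (26.3%).

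The promoters of 4 of the 5 genes, 250 bases before to 50 after the start site, were found in the RefSeq promoter table of GRCr8. They are shown because the cultures differ in oxygen: hypoxia-inducible factors bind the core letters ACGTG or GCGTG, and the factor Nrf2, a regulator of aldehyde-clearing enzymes, binds TGACNNNGC. Capitals mark matches of these letters on either strand, and no match overlapped another.

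Akr1a1, GRCr8 chr5:135346182-135346481, minus strand: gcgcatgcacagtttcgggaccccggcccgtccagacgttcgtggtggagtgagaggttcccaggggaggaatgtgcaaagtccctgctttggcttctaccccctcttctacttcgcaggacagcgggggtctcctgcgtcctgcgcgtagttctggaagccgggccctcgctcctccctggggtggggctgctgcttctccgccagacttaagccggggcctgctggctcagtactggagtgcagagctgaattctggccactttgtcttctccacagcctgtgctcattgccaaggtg
Adh1c, GRCr8 chr2:229470453-229470752, plus strand: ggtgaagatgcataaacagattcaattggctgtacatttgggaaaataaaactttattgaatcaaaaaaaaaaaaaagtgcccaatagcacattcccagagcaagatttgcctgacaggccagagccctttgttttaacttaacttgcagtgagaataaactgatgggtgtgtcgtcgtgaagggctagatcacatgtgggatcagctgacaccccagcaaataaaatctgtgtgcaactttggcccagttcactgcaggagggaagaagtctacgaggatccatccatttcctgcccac
Aldh1a2, GRCr8 chr8:80758391-80758690, plus strand: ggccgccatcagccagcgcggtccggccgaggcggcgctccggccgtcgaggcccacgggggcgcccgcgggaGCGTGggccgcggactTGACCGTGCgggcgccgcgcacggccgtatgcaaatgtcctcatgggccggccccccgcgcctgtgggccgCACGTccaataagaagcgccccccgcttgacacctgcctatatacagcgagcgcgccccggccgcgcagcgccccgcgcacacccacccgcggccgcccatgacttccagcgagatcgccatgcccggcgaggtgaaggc
Aldh3a2, GRCr8 chr10:46448286-46448585, minus strand: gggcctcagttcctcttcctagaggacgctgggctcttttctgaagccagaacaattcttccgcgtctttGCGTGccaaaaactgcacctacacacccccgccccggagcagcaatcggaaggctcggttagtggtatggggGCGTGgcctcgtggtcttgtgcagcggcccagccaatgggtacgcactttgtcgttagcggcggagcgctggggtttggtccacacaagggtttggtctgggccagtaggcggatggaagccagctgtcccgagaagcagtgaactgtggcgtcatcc

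The windows of Akr1a1 and Aldh3a2 surround start sites inside the spans that RefSeq annotates for these genes and not at their 5′ ends. Other start sites of Akr1a1 and Aldh3a2 were thus not searched. The windows of Akr1a1 and Adh1c hold 0 matches of any of these letters. Aldh1a2 and Aldh3a2, at or near background, hold 2 matches each of the hypoxia core, at -177 and -90 in Aldh1a2 and at -180 and -108 in Aldh3a2, counted from the start site to the base where the match begins. The match at -108 in Aldh3a2 lies inside the annotated span of that gene. Aldh1a2 also holds 1 match of TGACNNNGC, at -161. Of 33469 RefSeq rat promoters of the same length, 41.6% hold ACGTG or GCGTG and 12.1% hold TGACNNNGC, so matches of this kind are common. A match is a run of letters and not a measured binding site.

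Other genes of the pathways these enzymes act in gave 0 changes among 16 genes, in either direction (limma adjusted p, lowest 0.645), with 0 at an unadjusted p under 0.05. They fall into 2 genes of catecholamine metabolism, 2 of the retinoid pathway, 1 of ethanol metabolism and 11 of glutathione conjugation and peroxide removal. Of the 16, 11 had no signal over background on any membrane, including the retinoid X receptors Rxra and Rxrb and the ethanol-oxidising cytochrome P450 Cyp2e1. Differences were above 0 for 3 and below 0 for 13, against 538 above and 500 below among the 1038 tested genes. The median log2 difference was -0.36, against 0.03 over all tested genes. In the glutathione and peroxide list 10 of 11 were below 0, with a median of -0.42, and 7 of the 11 were at background on all membranes. The name search missed spots with differently written names, among them glutathione transferase subunits 5 theta (-0.61), 13 (0.50) and 8 (1.11). These were also at background on all membranes, so the count of 10 of 11 depends on how the names were written.

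Dbh, Gsr and Gpx3 were the 3 pathway genes with signal on at least 3 membranes. Dbh, which makes noradrenaline from dopamine, had a normalized log2 intensity of 15.36, 15.11 and 15.65 on chronic hypoxia membranes 1 to 3, against 14.59, 14.47 and 13.80 on normoxia membranes 1 to 3. After normalization its conditions did not overlap, which was so in this direction for 67 of the 1038 tested genes (6.45%), while its deposited intensities did overlap, with 27903 on chronic hypoxia membrane 2 and 33087 on normoxia membrane 1. The log2 difference was 1.08 (SE 0.55), with an adjusted p of 0.645 in limma and an exact permutation p of 0.1. The code of Dbh, C10k, adjoins that of Ache. Glutathione reductase (Gsr), which regenerates reduced glutathione, had 12.32, 11.02 and 12.00 in chronic hypoxia, against 12.10, 12.54 and 11.96 in normoxia. The log2 difference was -0.42 (SE 0.58), with an adjusted p of 0.863 in limma. Leaving out chronic hypoxia membrane 2 brought it to -0.036. Gpx3, a secreted peroxidase, had 14.47, 9.93 and 13.38 in chronic hypoxia, against 15.11, 12.49 and 14.47 in normoxia. The log2 difference was -1.43 (SE 1.10), with an adjusted p of 0.764 in limma. Its lowest value came from chronic hypoxia membrane 2, where it was not above background, and without that membrane the difference was -0.10.

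**Figure D5:**
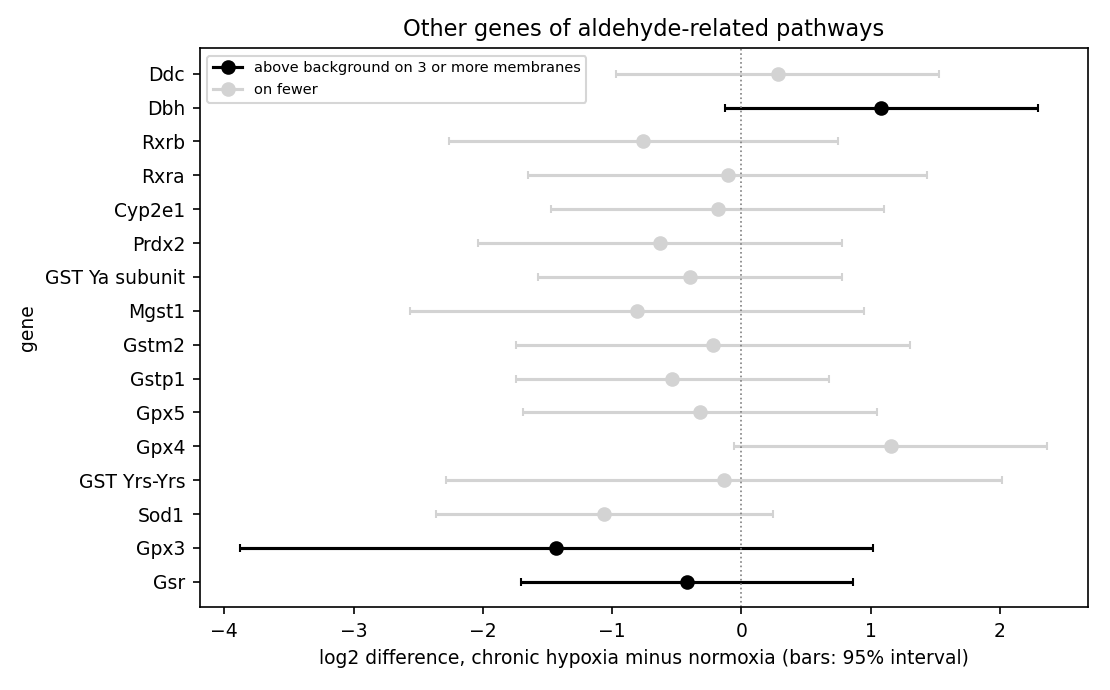
Log2 difference of normalized intensity, chronic hypoxia minus normoxia, with 95% intervals for the 16 other pathway genes, black where the gene was above background on at least 3 membranes. Dbh lies at 1.08, Gsr at -0.42 and Gpx3 at -1.43, and all 16 intervals include 0.

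Intensities were deposited on a grid with a spacing of 52 for chronic hypoxia 1 and normoxia 1, of 103 for chronic hypoxia 2, normoxia 2 and normoxia 3, and of 40 for chronic hypoxia 3. The labels name no scan format, so membranes of equal spacing were taken as 1 scan format and compared within it. Within the first format Aldh2 differed by 0.14, Akr1a1 by 0.51 and Adh1c by 0.29 on the log2 scale, and within the second by 0.16, 0.18 and 0.05. All 6 differences were above 0, but each rests on 1 chronic hypoxia membrane, and the third format holds chronic hypoxia alone. Aldh1a2 differed by -0.98 within the first format and by 2.86 within the second, and Aldh3a2 by -0.85 and 0.11.

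The authors' deposited table, 1 averaged and normalized intensity per condition, listed Akr1a1 at 54882 in chronic hypoxia and 38619 in normoxia, a ratio of 1.42. In the authors' deposited table Aldh2 had 48993 in chronic hypoxia and 41647 in normoxia, a ratio of 1.18, and Adh1c had 37352 and 33714, a ratio of 1.11. The authors' deposited table listed Aldh1a2 at 1635 in chronic hypoxia and 1849 in normoxia, and Aldh3a2 at 0 in both. The authors' deposited table had 132 genes with both values above 0, and their median ratio was 0.983. The authors' deposited table thus ordered the 3 bright genes as the fit did, with Akr1a1 first, then Aldh2 and Adh1c, and it comes from the same 6 membranes.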

How the data were processed

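Radioactive cDNA was hybridised to Atlas Rat 1.2 membranes and quantified with AtlasImage V2.0, per the series' design text. The deposited intensity values hold 1 number per gene and membrane, include background and are not scaled between membranes. A second deposited table holds the authors' intensity per condition, an average of 3 membranes normalized to the average signal, per the series' design text, which does not say how background was removed. Here the membrane intensities were corrected by normexp with an offset of 50, put on the log2 scale and quantile normalized. Chronic hypoxia and normoxia were compared with limma 3.58.1 (lmFit, eBayes) in R 4.3.3, fitting condition alone, and p-values were adjusted by Benjamini and Hochberg's method over 1038 genes, with a threshold of 0.05. Single genes and ratios were also tested with two-sided exact permutations over the 20 assignments of the membranes. The fit was tested on simulated data with a smaller spread than these membranes have. That test therefore does not show which changes the fit could find here. The number of arrays limits the precision. Python 3.11.15 and matplotlib 3.10.9 drew the figures.

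The genes and the pathway and marker lists were chosen by name, with earlier results of these data known. Named pathway genes are those above background on at least 3 membranes, at most 4 per list. The 3 most alike genes per bright gene are those with the highest r.

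Alternatives changed the normalization, background correction, filter, membranes, blocks, weights and background threshold. The within-membrane ratios, the averaging of chronic hypoxia membranes 1 and 3 and the intensity trend in the spread were added after the data were seen.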

Additional observations from a re-analysis of the deposited data

How the results depend on the processing

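The counts of 0 changed genes among the 5, the 16 pathway genes and the 1038 tested genes held under all 18 alternatives run, where the lowest limma adjusted p was 0.460, 0.264 and 0.0512. Akr1a1 kept its direction in all 21 alternatives, with log2 differences from 0.18 to 0.51. Aldh2 and Adh1c kept theirs in 20 of 21 (up to 0.35 and 0.32), turning to -0.034 and -0.15 without normalization between membranes. Adh1c was at 0.001 with median scaling. The counts of alternatives for single genes, here and below, include changes of filter, the replicate block and the intensity trend in the spread. Those settings cannot change a gene's difference, so they could not reverse its direction.

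Aldh1a2 reversed in 7 of 20 alternatives: 0.19 without background correction, 0.21 without chronic hypoxia membrane 1, 0.98 without chronic hypoxia membrane 3, 0.12 without normoxia membrane 3, 1.21 with scan format as a block, 0.60 with chronic hypoxia membranes 1 and 3 averaged and 2.86 within the second format. Aldh3a2 reversed in 7 of 19: -0.088 without normalization, -0.013 without background correction, -0.17 without chronic hypoxia membrane 3, -0.65 without normoxia membrane 2, -0.30 with the format as a block, -0.018 with the averaged membranes and -0.85 within the first format. Leaving out 1 membrane gave -1.57 to 0.98 for Aldh1a2 and -0.65 to 0.48 for Aldh3a2. Gpx3 reversed to 0.13 in the authors' deposited table and Gsr to 0.22 within the first format. The ratio of Aldh2 over Adh1c ranged from -0.037 to 0.22 with 1 membrane left out. The cause of these reversals was not tested. Of the 5 genes, 3 to 4 were above background on at least 3 membranes at 5 or 2 times the spread in place of 3.

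Over the 1038 tested genes, same-numbered membranes deviated together with r of 0.09, 0.11 and 0.02, and the numbers were not taken to pair the cultures. Of all 1185 genes, 867 were above background on no membrane, so these low r cannot exclude pairing. Each replicate block holds 1 membrane of each condition, so blocking cannot change a difference. Those of Aldh2, Akr1a1 and Adh1c are thus 0.26, 0.35 and 0.23 by construction. With that block 0 genes passed. Signal over background limits what can be said of Aldh1a2 and Aldh3a2.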
